A study of Mus musculus with 28 samples.

Results

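The genes described here are 44 complement and coagulation genes, picked by symbol from the textbook cascades. They stand among 54163 genes in the liver table at 40 d, 54189 in the muscle table at 40 d and 54501 in the table at 24 h, and every symbol occurred in each table. They were split by where their transcripts are known to be made: 38 encode plasma proteins that hepatocytes secrete, and 6 (C1qa, C1qb, C1qc, Cfp, C3ar1 and C5ar1) are expressed by macrophages and other myeloid cells. The split rests on textbook knowledge and used no value from these samples. The mice were male Lepob/Lepob animals on the C57BL/6J background, which lack functional leptin and become obese; all groups, controls included, ate the AMLN diet (40% of calories from fat, 20% from fructose, with 2% cholesterol by weight) for 20 weeks from 4 weeks of age, a regime used to produce fatty, inflamed livers. Treated mice received daily intraperitoneal aspirin (acetylsalicylate, an inhibitor of prostaglandin synthesis, 3.0 mg/kg/day) together with trimetazidine (an anti-anginal drug that inhibits mitochondrial fatty acid oxidation, 5.0 mg/kg/day), and vehicle mice received the solvent. After 40 d, 6 treated and 6 vehicle livers and 6 treated and 6 vehicle muscles were sequenced. The 24 h samples were taken 24 h after injection of both drugs or of vehicle, per the labels. At 24 h there was 1 library per group and tissue, so those values have no replicate check. Neither drug given alone was analysed here, and the muscle sampled is not named in the labels.

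Complement is a set of plasma proteases and binding proteins that coat microbes and damaged cells. It starts from C1q, from mannose-binding lectins or from spontaneous turnover of C3, meets at cleavage of C3, and ends in a membrane pore built from the terminal components. Coagulation is a second protease cascade, in which vitamin K-dependent enzymes produce thrombin, which cleaves fibrinogen to fibrin; plasmin later dissolves the clot. Hepatocytes make most of these proteins, and a part of them, fibrinogen and C3 among them, are acute phase proteins whose transcription interleukin-6 and related cytokines are known to raise. C1q and properdin are exceptions, made mostly by macrophages and other myeloid cells.

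Because the fibrinogen genes and the C8 pair carried the largest differences among the coagulation and terminal complement genes in treated livers, the stretches before their starts are shown first. The sequences are RefSeq windows on GRCm38.p6, 5′ to 3′ on the gene's strand, ending at the base before the start; capitals mark matches, on either strand, to TTCNNNGAA (the STAT core, bound by the factors that interleukin-6 activates), CTGGGAA (the type II interleukin-6 response element) and GTTAAT (the core bound by the hepatocyte factor HNF1). The Fga window was shortened to end before the gene start that the deposited tables give.
Fga, chr3:83025903-83026075, plus strand: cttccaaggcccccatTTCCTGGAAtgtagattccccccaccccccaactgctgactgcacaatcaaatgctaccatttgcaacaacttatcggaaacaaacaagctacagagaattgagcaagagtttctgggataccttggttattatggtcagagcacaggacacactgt
Fgb, chr3:83049864-83050113, minus strand: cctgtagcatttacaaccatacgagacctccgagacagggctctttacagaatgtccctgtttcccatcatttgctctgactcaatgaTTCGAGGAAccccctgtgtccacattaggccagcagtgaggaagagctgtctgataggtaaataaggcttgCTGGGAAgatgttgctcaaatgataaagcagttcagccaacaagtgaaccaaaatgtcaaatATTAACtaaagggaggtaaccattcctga
Fgg, chr3:83007474-83007723, plus strand: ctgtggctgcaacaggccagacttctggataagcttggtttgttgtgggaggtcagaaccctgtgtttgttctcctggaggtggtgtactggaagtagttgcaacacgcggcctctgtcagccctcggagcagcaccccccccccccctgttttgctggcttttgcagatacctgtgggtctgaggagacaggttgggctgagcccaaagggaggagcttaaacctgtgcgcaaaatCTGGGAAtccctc
C8a, chr4:104876399-104876648, minus strand: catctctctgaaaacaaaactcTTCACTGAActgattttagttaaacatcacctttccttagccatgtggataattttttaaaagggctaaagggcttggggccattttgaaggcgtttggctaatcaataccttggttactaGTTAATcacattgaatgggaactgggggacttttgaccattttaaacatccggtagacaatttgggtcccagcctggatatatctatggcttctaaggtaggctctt
C8b, chr4:104766067-104766316, plus strand: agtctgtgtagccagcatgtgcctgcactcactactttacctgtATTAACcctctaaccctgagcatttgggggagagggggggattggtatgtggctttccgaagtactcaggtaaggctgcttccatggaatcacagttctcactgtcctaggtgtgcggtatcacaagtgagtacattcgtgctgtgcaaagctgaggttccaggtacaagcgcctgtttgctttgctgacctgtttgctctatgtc
Fga, Fgb and C8a hold a STAT core, Fgb and Fgg hold CTGGGAA, and Fgb, C8a and C8b hold a GTTAAT match in these windows. Fga has a GTTAAT match too, at -43 to -38 from the RefSeq start, within the 77 bases cut from the window shown. A match is a run of letters, not a bound site. Of 36 windows found for members of both classes, 28 had bases after the start that lie in a transcript of the gene, and all were kept. RefSeq gave a window for 29 of the 38 liver-secreted members. Over the 250 bases before their RefSeq starts, with the Fga window uncut, TTCNNNGAA was found in 6 of them (20.7%, against 8.13% of all 27025 genes with a window). CTGGGAA was found in 5 (17.2% against 10.4%), and in Masp2 and F9 it overlapped the STAT core. GTTAAT was found in 9 (31% against 7.49%). The C/EBP core TTNCNNAA was found in 15 (51.7% against 40.3%), and the NF-kappaB core in 0 (against 1.36%). The shares are descriptions and carry no test. Among the 6 with TTCNNNGAA, log2 fold changes (treated minus vehicle, liver at 40 d) were 1.13 in C8a, 0.77 in Fga and 0.76 in Fgb. In Pros1, F9 and Masp2 they were 0.19, 0.075 and 0.014. C3 (0.83) and C8b (1.12) held no TTCNNNGAA in their windows.

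Reads recovered from the deposited values came to 16771848 to 18902143 per liver library, 16102181 to 19920148 per muscle library at 40 d and 16060699 to 17412261 per library at 24 h. The tissue labels matched the markers: summed skeletal muscle markers were 28964 to 53721 FPKM (reads scaled by gene length and library size) in muscles and 0 to 4.00 FPKM in livers, and summed hepatocyte markers were 22277 to 39599.7 FPKM in livers. Several libraries stood apart. The treated liver 4_5 had a summed macrophage marker level of 2952 FPKM, against 688 to 1061 FPKM in the other 11 livers. Its neutrophil markers summed to 481 FPKM, against 34.5 to 127 FPKM in the other treated and at most 20.6 FPKM in the vehicle livers. The treated liver 5_2 had acute phase genes near or below the vehicle level, and the treated liver 5_5 had the lowest hepatocyte marker sum. The vehicle muscle 3_2 and the 24 h vehicle muscle held transcripts of hepatocyte genes. Mouse numbers in the vehicle group begin with 2, 3 or 6 and those in the treated group with 4 or 5, so whatever that digit stands for cannot be told apart from treatment.

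In liver at 40 d the cascade genes were mostly higher in mean in treated mice, with no member passing the test. All 44 members passed the filter on low values, and 39 had a positive log2 fold change, against 49% of the 10995 genes tested. Their median log2 fold change was 0.29, that of all genes -0.0033. By limma 0 of 44 members reached an adjusted p of 0.05 (all genes 0.255%), and the smallest was 0.116, for C1ra. At an unadjusted p under 0.05 there were 18 members higher (all genes 5.88%) and 0 lower (all genes 7.35%; either direction 13.2%). The 18 were C1ra, Mbl1, C3, C4b, Cfb, Hc, C8a, C8b, C4bp, Serping1, C5ar1, F7, F10, Kng1, Fga, Fgb, Fgg and Plg. Limma voom on the recovered reads also called 0 members. Values of C1ra, Fga and Fgb did not overlap between groups, 3 members in all (all genes 0.427% in that direction and 1.16% in either).

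The count called depended on the treated liver 5_2. Without it 5 members passed: C1ra, C3, C8b, C4bp and Serping1, with log2 fold changes of 0.51, 1.02, 1.34, 0.64 and 0.95 and adjusted p from 0.0308 to 0.0466. Without both 4_5 and 5_2 there were 10, with Mbl1, C4b, C8a and the fibrinogen genes added and C1ra lost (all genes called: 28 with all livers, 83 without 5_2 and 144 without both). Both libraries were singled out with their values known, so these counts are no independent support. The spread itself differed: the SD of the log2 values was larger in the treated group for 42 of 44 members (all genes 65.7%).

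Split by source, 33 of the 38 liver-secreted members had a positive log2 fold change, with a median of 0.26. All 6 macrophage-expressed members had one, with a median of 0.40. The difference between the classes was not tested. They differed in which liver was high, as given by library below the account of each role.

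**Figure D1:**
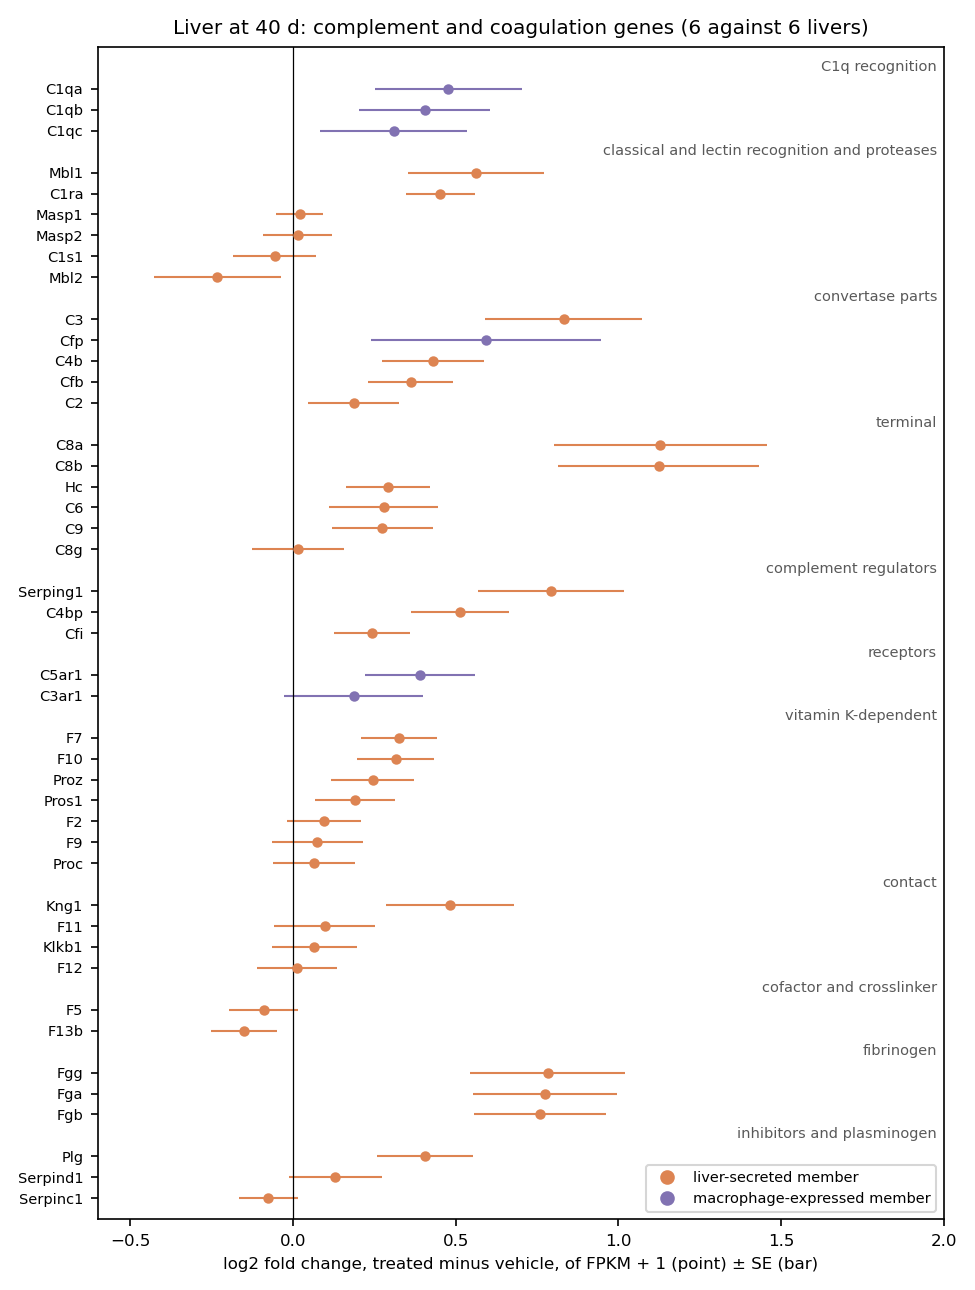
Log2 fold change (treated minus vehicle, of FPKM + 1) ± SE of each member in liver at 40 d, grouped by role, in orange for liver-secreted and purple for macrophage-expressed members. C8a, C8b, C3, Serping1 and the fibrinogen genes lie farthest to the right, F13b and Mbl2 to the left of 0, and none passed the test over all genes.

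Fibrinogen, the soluble precursor of the clot, is built from the chains that Fga, Fgb and Fgg encode. The genes lie side by side on chromosome 3 (Fgg at chr3:83007724-83015049, plus strand; Fga at chr3:83026076-83033627, plus strand; Fgb at chr3:83040141-83049863, minus strand). Fga measured 594 to 744 (median 715) FPKM in the 6 vehicle livers. In treated livers it measured 849 in 4_5, 1259.7 in 5_1, 760.0 in 5_2, 1869.9 in 5_3, 975 in 5_4 and 1934 in 5_5 FPKM. All 6 treated livers were above the highest vehicle liver, with 5_3 and 5_5 far above the rest and 5_2 just above (log2 fold change 0.77, SE 0.22, adjusted p = 0.175). Fgb measured 483 to 548 (median 508) FPKM in vehicle livers. The treated livers gave 663 in 4_5, 917 in 5_1, 571 in 5_2, 1326 in 5_3, 694 in 5_4 and 1349.5 in 5_5 FPKM, again with no overlap (log2 fold change 0.76, SE 0.20, adjusted p = 0.15). Fgg measured 723 ± 57.4 and 1344 ± 588 FPKM (vehicle and treated, mean ± SD, n = 6 each), and its lowest treated liver, 5_2, lay inside the vehicle range (log2 fold change 0.78, SE 0.24, adjusted p = 0.189). The proportions of the chains overlapped between groups: Fga over Fgb was 1.23 to 1.43 in vehicle and 1.28 to 1.43 in treated livers, and Fgg over Fgb 1.27 to 1.56 and 1.32 to 1.55. An antisense gene, Gm30097, shares 5.49% of the exon bases of Fgg; no source used here gives the strand setting of the counting.

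**Figure D2:**
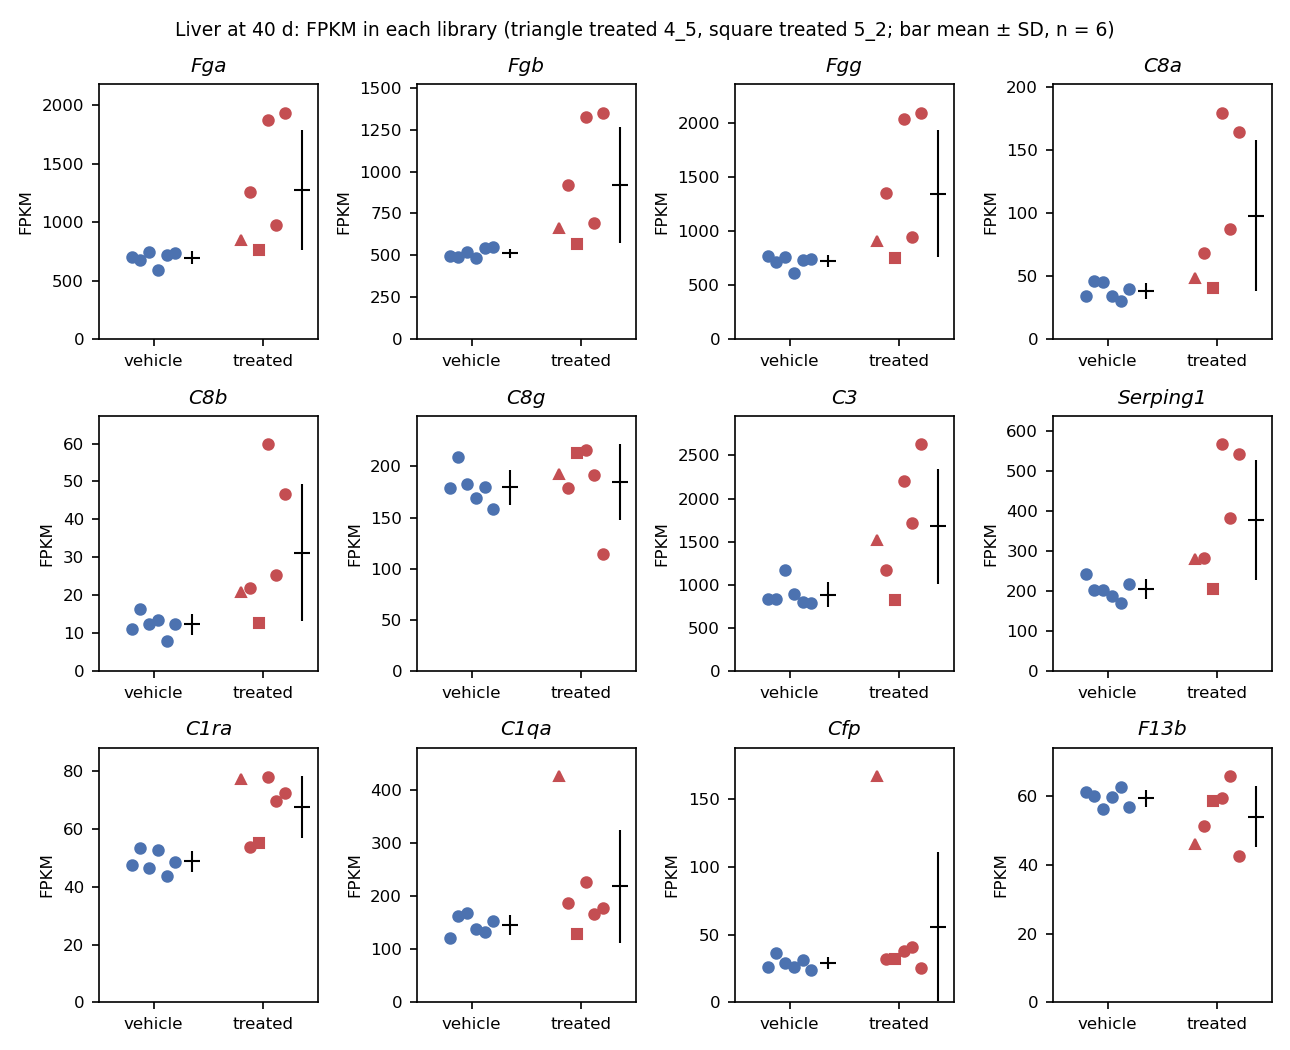
FPKM of 12 members in each liver at 40 d (vehicle blue, treated red, triangle 4_5, square 5_2; cross and bar give the mean ± SD of 6 livers, with each axis from 0). The treated points of Fga, Fgb, C8a, C3 and Serping1 spread upward while 5_2 stays near the vehicle points, and in C1qa and Cfp the triangle alone lies far above.

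Of the terminal components, which build the membrane pore, the C8 alpha and beta chains differed most. C8a measured 30.2 to 46.2 (median 37.2) FPKM in vehicle livers. Its treated values were 48.9 in 4_5, 68.3 in 5_1, 40.4 in 5_2, 179.7 in 5_3, 87.8 in 5_4 and 164 in 5_5 FPKM, so that 5 of 6 were above the highest vehicle liver (log2 fold change 1.13, SE 0.33, adjusted p = 0.177). C8b measured 7.96 to 16.4 (median 12.4) FPKM in vehicle livers. The treated values of C8b were 20.7 in 4_5, 21.9 in 5_1, 12.5 in 5_2, 59.8 in 5_3, 25.3 in 5_4 and 46.7 in 5_5 FPKM (log2 fold change 1.12, SE 0.31, adjusted p = 0.162). C8a and C8b lie next to each other on chromosome 4 (chr4:104815679-104876398, minus strand, and chr4:104766317-104804548, plus strand). C8g, whose product is the gamma chain of C8 and belongs to the lipocalin family, is on chromosome 2; it measured 179.6 ± 17.1 FPKM in vehicle and 185 ± 37.1 FPKM in treated livers (log2 fold change 0.015). The ratio of C8a to C8g was 0.168 to 0.253 in vehicle livers and 0.190 to 1.43 in treated livers, with 0.830 in 5_3 and 1.43 in 5_5. The ratio of C8a to C8b was 2.36 to 3.79 over all 12 livers. Hc, which encodes C5, had a log2 fold change of 0.29, and those of C6 and C9 were 0.28 and 0.27; none of these passed.

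Among the parts of the convertases, the enzymes that cut C3 and C5, C3 itself was the most abundant. C3 measured 792 to 1169 (median 830.4) FPKM in vehicle livers, the highest in 2_4. The treated livers held 1519 in 4_5, 1177 in 5_1, 818 in 5_2, 2203 in 5_3, 1713 in 5_4 and 2629 in 5_5 FPKM. All treated livers but 5_2 were above the highest vehicle liver (log2 fold change 0.83, SE 0.24, adjusted p = 0.178). C4b, a paralog of C4a whose reads may be split between them, measured 213 ± 10.2 and 297 ± 83.6 FPKM (log2 fold change 0.43). C2 and Cfb, the protease subunits of the classical and alternative convertases, measured 5.23 ± 0.547 and 6.23 ± 1.62 FPKM, and 1.85 ± 0.423 and 2.68 ± 0.663 FPKM. Their levels are uncertain: the read-through gene Gm20547 lies on the same strand over 42.8% of C2 and 79.5% of Cfb exon bases, and is listed at 0 in every library.

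The macrophage-expressed members were set apart by the treated liver 4_5. C1qa, C1qb and C1qc encode the chains of C1q, the recognition molecule of the classical pathway, and are neighbours on chromosome 4. C1qa measured 121 to 169 (median 146) FPKM in vehicle livers. The treated livers gave 426 in 4_5, 188 in 5_1, 128 in 5_2, 226 in 5_3, 167 in 5_4 and 178 in 5_5 FPKM, with 4_5 far above the others (log2 fold change 0.48, SE 0.23, adjusted p = 0.387). Without 4_5 the treated mean of C1qa was 177 FPKM against a vehicle mean of 146. For C1qb the means were 237 FPKM with 4_5, 197 without it and 168 in vehicle livers, and for C1qc 103, 82.6 and 77.5 FPKM. Properdin (Cfp), which stabilises the alternative convertase, measured 167 FPKM in 4_5 and 25.4 to 41.1 FPKM in the other treated livers, against 24.2 to 36.2 (median 27.8) FPKM in vehicle livers. The receptor of C5a, C5ar1, measured 5.37 in 4_5, 4.74 in 5_1, 2.80 in 5_2, 4.46 in 5_3, 2.84 in 5_4 and 3.74 in 5_5 FPKM in treated livers, against 1.62 to 3.66 (median 2.90) FPKM in vehicle livers (log2 fold change 0.39, SE 0.17, adjusted p = 0.349). The receptor of C3a, C3ar1, had a log2 fold change of 0.19, and 4_5 was its highest liver at 9.90 FPKM. Of the macrophage markers outside the members, 11 of 11 had a positive log2 fold change (median 0.41, all genes 49% positive) and none passed. Their median difference from the vehicle mean, on the log2 scale, was 1.87 in 4_5 and 0.040 to 0.28 in the other treated livers. In vehicle livers that difference was -0.11 to 0.24. The part of these markers in the members' values was not tested. More macrophages per liver and more transcript per macrophage cannot be told apart in bulk tissue.

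The remaining recognition molecules and proteases of the classical and lectin pathways split in direction. C1ra, the C1r protease of the C1 complex, measured 47.6 in 2_1, 53.3 in 2_3, 46.5 in 2_4, 52.5 in 2_5, 43.8 in 3_2 and 48.7 in 6_1 FPKM in vehicle livers. Those in treated livers were 77.1 in 4_5, 53.8 in 5_1, 55.2 in 5_2, 77.8 in 5_3, 69.6 in 5_4 and 72.6 in 5_5 FPKM. The groups did not overlap, although 5_1 and 5_2 lay just above the highest vehicle liver (log2 fold change 0.45, SE 0.11, adjusted p = 0.116); C1ra has a close copy, C1rb, with which reads may be shared. Its partner C1s1, which lies beside it on chromosome 6, measured 104 ± 10.5 and 101 ± 20.6 FPKM (log2 fold change -0.057). The mannose-binding lectins differed from each other: Mbl1 had a log2 fold change of 0.56 and Mbl2 one of -0.23. Mbl2 measured 107 FPKM in the treated liver 5_5 alone, 211 to 321 FPKM in the other treated livers and 228 to 267 FPKM in vehicle livers. The lectin proteases Masp1 and Masp2 had log2 fold changes of 0.020 and 0.014.

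All 3 members that restrain complement had a positive log2 fold change. Serping1 encodes C1 inhibitor, which blocks C1r, C1s and the contact proteases. It measured 170.2 to 242 (median 203) FPKM in vehicle livers. Serping1 in treated livers was 279 in 4_5, 282 in 5_1, 205 in 5_2, 567 in 5_3, 383 in 5_4 and 544 in 5_5 FPKM, with 5_2 inside the vehicle range and the other 5 above it (log2 fold change 0.79, SE 0.22, adjusted p = 0.172). C4bp, the C4b-binding protein, measured 81.5 ± 4.11 and 119.9 ± 30.6 FPKM (log2 fold change 0.51, SE 0.15, adjusted p = 0.18). Factor I (Cfi), the protease that inactivates C3b and C4b, had a log2 fold change of 0.24.

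The vitamin K-dependent factors, enzymes and cofactors of clotting that need vitamin K to bind membranes, had small differences. F7, the factor that starts clotting with tissue factor, measured 19.3 to 25.2 (median 21.0) FPKM in vehicle livers. The treated livers ranged over 23.0 to 37.2 (median 26.5) FPKM (log2 fold change 0.33, SE 0.12, adjusted p = 0.259). F7 lies in a row on chromosome 8 with F10 and Proz (protein Z), whose log2 fold changes were 0.32 and 0.25. For prothrombin (F2), F9, protein C (Proc) and protein S (Pros1) they were 0.094, 0.075, 0.065 and 0.19. Of the contact system, Kng1, the kininogen from which bradykinin is cut, measured 403 to 515 (median 468) FPKM in vehicle livers. In treated livers Kng1 measured 428 to 1029 (median 628) FPKM (log2 fold change 0.48, SE 0.20, adjusted p = 0.323). F11, F12 and prekallikrein (Klkb1) had log2 fold changes of 0.097, 0.012 and 0.066; Gm45753 overlaps 43.2% of Klkb1 exon bases on the same strand.

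The members lower in mean were few. F13b, the carrier subunit of the enzyme that crosslinks fibrin, measured 56.3 to 62.6 (median 59.9) FPKM in vehicle livers. Treated livers held 45.9 in 4_5, 51.4 in 5_1, 58.7 in 5_2, 59.5 in 5_3, 65.9 in 5_4 and 42.6 in 5_5 FPKM, lowest in 5_5 and 4_5, with the groups overlapping (log2 fold change -0.15, SE 0.10, adjusted p = 0.55). The cofactor F5 had a log2 fold change of -0.090, and antithrombin (Serpinc1), the main inhibitor of thrombin, one of -0.076. Heparin cofactor II (Serpind1) had one of 0.13. Plasminogen (Plg), the precursor of plasmin, measured 323 to 384 (median 371) FPKM in vehicle livers. In treated livers Plg measured 432 in 4_5, 398 in 5_1, 375 in 5_2, 754 in 5_3, 480.1 in 5_4 and 512 in 5_5 FPKM, with 5_2 inside the vehicle range (log2 fold change 0.41, SE 0.15, adjusted p = 0.265).

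By library, the number of the 44 members above the highest vehicle liver was 25 in 4_5, 20 in 5_1, 5 in 5_2, 37 in 5_3, 31 in 5_4 and 28 in 5_5. The number below the lowest vehicle liver was 4 in 4_5, 9 in 5_1, 10 in 5_2, 6 in 5_5 and 0 in both 5_3 and 5_4. No share over all genes was taken by library, so these counts are descriptions without a background. The classes ranked the treated livers differently. The median difference of the liver-secreted members from the vehicle mean, on the log2 scale, was largest in 5_3 (0.66) and 5_5 (0.44), and in 4_5 it was 0.11. For the macrophage-expressed members it was 1.39 in 4_5, 0.46 in 5_3 and 0.16 in 5_5. In 5_2 both were below 0, at -0.056 and -0.19. Acute phase genes outside the members (Saa1, Orm1, Hp and others, 10 genes) had median differences of 2.97 in 5_5, 2.78 in 5_3, 1.56 in 4_5, 1.36 in 5_4, 1.14 in 5_1 and -0.31 in 5_2. All 10 had a positive log2 fold change (median 1.64) and 0 passed the test. Summed hepatocyte markers were 22277 FPKM in 5_5 and 29711 to 39599.7 FPKM in the others. Mbl2, C8g, Klkb1, F13b and Serpinc1 were lowest in 5_5, while C3, Fga, Fgb and Fgg, among others, were highest there. The part of these lists in the members' values was not tested.

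**Figure D3:**
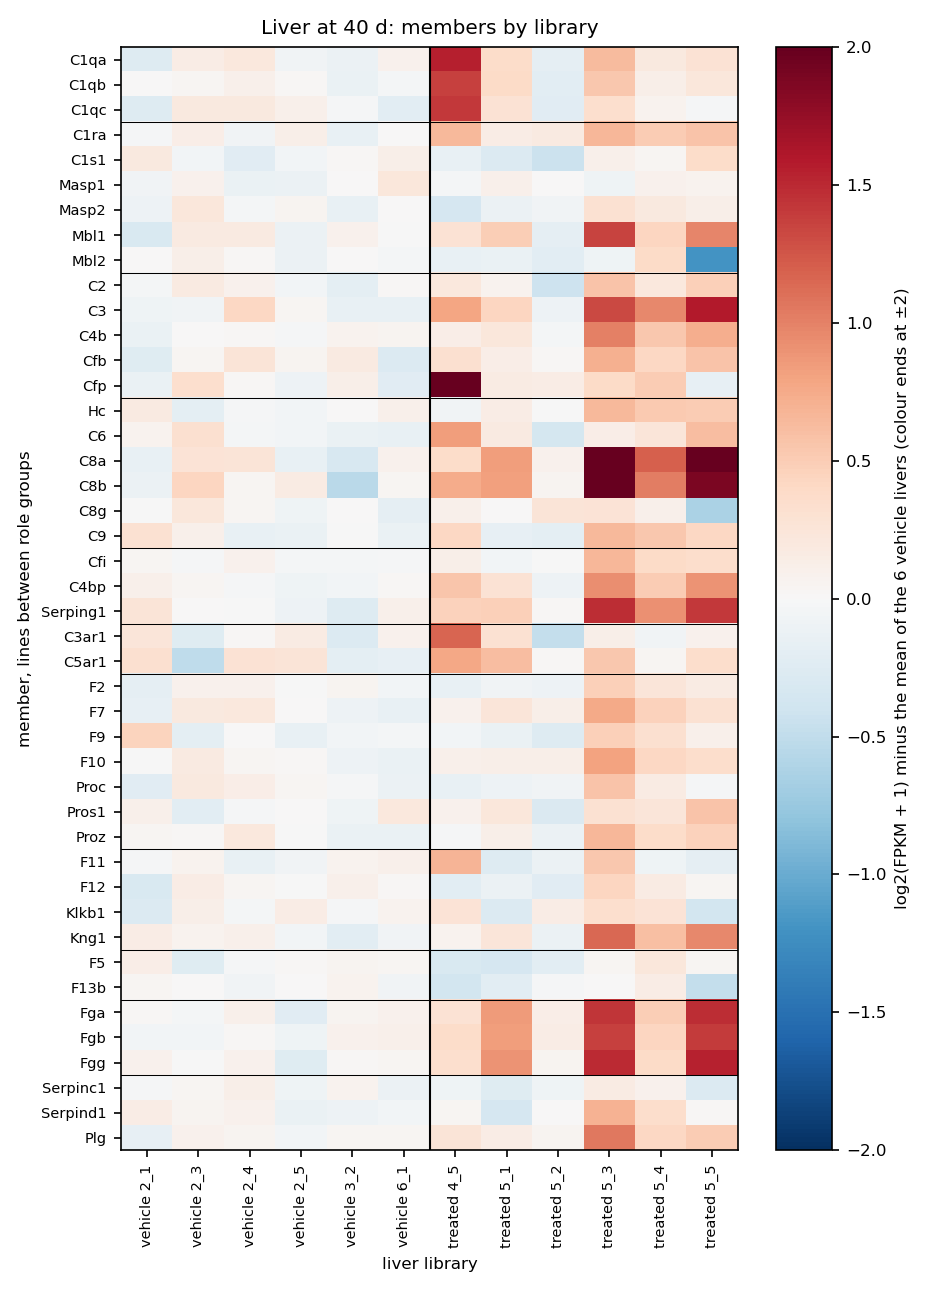
Each member (rows, lines between roles) in each of the 12 livers at 40 d (columns), as log2(FPKM + 1) minus the mean of the 6 vehicle livers, red higher and blue lower, with colour ending at 2. The fibrinogen, C8a, C8b, C3 and Serping1 rows are darkest in 5_3 and 5_5, the C1q and Cfp rows in 4_5, and the 5_2 column is pale.

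The other genes of both cascades, a list of 68 genes that are not members, were described the same way. Of these 47 passed the filter in liver, and 33 had a positive log2 fold change (all genes 49%), with a median of 0.19. By limma 0 passed the test (all genes 0.255%). At an unadjusted p under 0.05, 11 were higher (all genes 5.88%) and 1 lower (all genes 7.35%). Fgl1, a liver-secreted relative of fibrinogen, came closest, at 67.1 ± 11.9 and 279 ± 166 FPKM (log2 fold change 1.82, SE 0.35, adjusted p = 0.0574). The thrombin receptor F2r was the member of the list lower at that level, at 18.4 ± 1.98 and 14.4 ± 1.32 FPKM (log2 fold change -0.33, SE 0.084, adjusted p = 0.135).

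In muscle the levels of the classes interleaved. In vehicle muscles the highest mean was that of liver-secreted Serping1 (102 FPKM), followed by C3 (71.2 FPKM) and C1qa (59.3 FPKM). All 6 macrophage-expressed members and 8 liver-secreted ones passed the filter on low values; the other 30 had vehicle means under 1 FPKM. C2 and Masp1 were among those 30 and had reads in every muscle, at least 21 and 57. In vehicle mice C5ar1 measured 3.48 ± 1.05 FPKM in muscle and 2.82 ± 0.851 FPKM in liver, and C1qa 59.3 ± 9.23 and 146 ± 18.5 FPKM. Serping1 and Pros1, both also known from cells of the vessel wall and connective tissue, were at 49.8% and 50.0% of the mean vehicle liver level, C1s1 at 29.3%, C1ra at 27.6%, C4b at 18.5%, C2 at 16.8%, Cfb at 14.3% and C3 at 8.04%. The tissue tables were normalized separately, so these levels carry no test. The shares of C2 and Cfb also rest on levels that Gm20547 makes uncertain. Cfb averaged 0.264 FPKM in vehicle muscles, with 2 reads in its lowest muscle. The 30 liver-secreted members that did not pass the filter in muscle summed to 28.6 FPKM in the vehicle muscle 3_2, against 2.59 to 6.89 FPKM in the other vehicle muscles and 1.97 to 6.69 FPKM in treated muscles. In 3_2 their median was 0.520% of the vehicle liver level, and Alb, the albumin gene, was at 0.439% (98.0 FPKM). Fgg, for one, measured 4.20 FPKM in 3_2 and at most 0.679 FPKM in the other vehicle muscles.

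**Figure D4:**
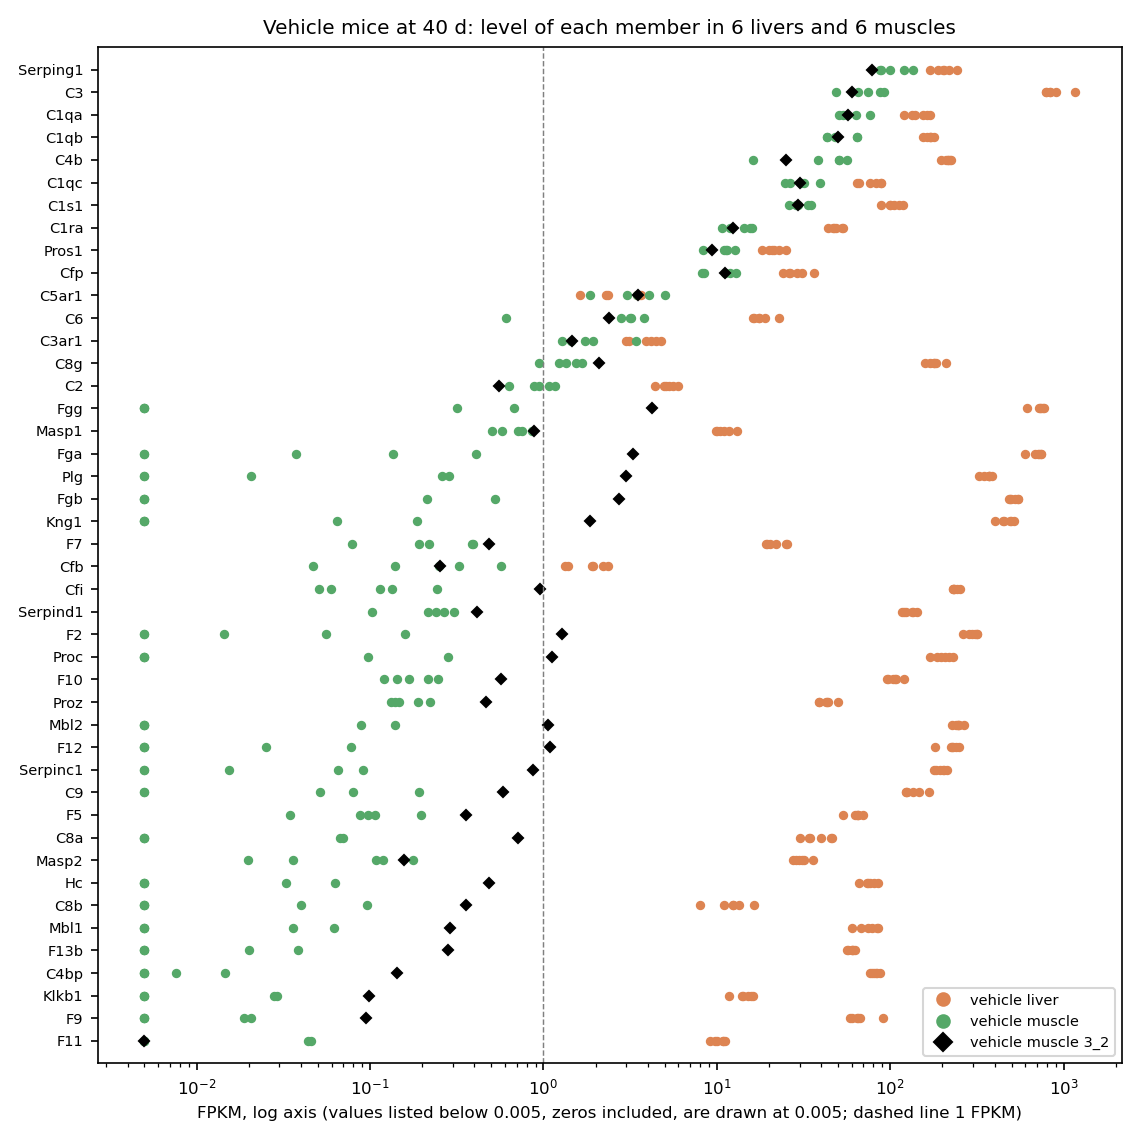
FPKM on a log axis of each member in the 6 vehicle livers (orange) and 6 vehicle muscles (green, with 3_2 as a black diamond) at 40 d, ordered by muscle mean; values under 0.005 are drawn at 0.005. The upper members overlap 1 FPKM or more in both tissues, and for most of the lower ones the diamond lies to the right of the other muscles.

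No member passed the test in muscle at 40 d. Of the 44, 14 passed the filter: C1ra, C1s1, C3, C4b, C6, C8g, Serping1 and Pros1 of the liver-secreted class and all 6 macrophage-expressed members. Limma called 0 (all 11708 genes 0%), and limma voom 0. At an unadjusted p under 0.05 there were 0 (all genes 3.85%; higher 1.88%), and no member's groups were apart (all genes 0.256%; treated above vehicle 0.0854%). The SD of the log2 values was larger in the treated group for 13 of the 14 (all genes 58.4%). The median log2 fold change was 0.081, with 9 positive (all genes 48.6%). Without the treated 5_2 the median was 0.18 with 13 positive, and without the treated 4_5 it was -0.0078 with 7. C1qa measured 50.3 to 76.0 (median 56.4) FPKM in vehicle muscles. In treated muscles it measured 108 in 4_5, 50.9 in 5_1, 40.2 in 5_2, 64.9 in 5_3, 59.8 in 5_4 and 124 in 5_5 FPKM, high in 4_5 and 5_5 and low in 5_2 (log2 fold change 0.22, SE 0.24, adjusted p = 0.999). Cfp measured 8.16 to 12.8 (median 11.2) FPKM in vehicle and 7.10 to 23.3 (median 11.5) FPKM in treated muscles, with 4_5 highest (log2 fold change 0.17, SE 0.21, adjusted p = 0.999).

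The treated and vehicle muscles overlapped for each of the others. C3ar1 measured 1.28 to 3.41 (median 1.60) FPKM in vehicle and 1.12 to 3.25 (median 1.55) FPKM in treated muscles (log2 fold change -0.041, SE 0.18, adjusted p = 0.999). C1ra measured 10.7 to 16.0 (median 13.4) FPKM in vehicle and 9.59 to 19.8 (median 15.9) FPKM in treated muscles (log2 fold change 0.15, SE 0.15, adjusted p = 0.999). Serping1, the inhibitor of that protease, measured 78.4 to 136 (median 93.7) FPKM in vehicle and 64.8 to 164 (median 112) FPKM in treated muscles (log2 fold change 0.11, SE 0.20, adjusted p = 0.999). The remaining C1qb, C1qc, C1s1, C3, C4b, C8g and C5ar1 had log2 fold changes of -0.018 to 0.26. C6, a terminal component, measured 0.611 to 3.81 (median 2.98) FPKM in vehicle and 0.445 to 3.77 (median 1.92) FPKM in treated muscles (log2 fold change -0.35, SE 0.29, adjusted p = 0.999). Its log2 fold change was -0.17 without the treated 5_2. Pros1 measured 8.36 to 12.8 (median 11.1) FPKM in vehicle and 9.49 to 12.6 (median 10.9) FPKM in treated muscles (log2 fold change 0.053, SE 0.10, adjusted p = 0.999). The summed adipocyte markers of the treated muscle 5_2, at 104 FPKM, were the lowest of the 12 muscles (215 to 961 FPKM in the others). The part of fat or immune cells in these values was not tested. Of the other cascade genes 31 passed the filter in muscle and none passed the test (all genes 0%). At an unadjusted p under 0.05 there were 2, both lower (all genes 1.97%). They were Procr, the protein C receptor (log2 fold change -0.30, SE 0.10, adjusted p = 0.999), and Plau, the urokinase plasminogen activator (log2 fold change -0.37, SE 0.13, adjusted p = 0.999).

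Whether the liver and muscle effects differed was tested for the 14 members measured in both tissues, in 1 model over the 24 libraries at 40 d. Limma called 0 (all genes 0.0106%). At an unadjusted p under 0.05 there was 1 (all genes 5.21%), Serping1, whose effect was 0.69 larger in liver on the log2 scale (SE 0.31, adjusted p = 0.955). For C3 the difference was 0.63 (SE 0.38) and for C6 0.63 (SE 0.35). Fibrinogen, C8a and C8b could not enter, being near 0 in muscle.

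At 24 h, with 1 liver per group, fibrinogen stood out. Fga measured 783 FPKM in the vehicle and 1693 FPKM in the treated liver. Fgb measured 714 and 1346 FPKM, and Fgg 853 and 1737 FPKM. The log2 ratios of FPKM + 1 were 1.11, 0.91 and 1.03. Fga and Fgg were the 2 members with a log2 ratio of at least 1 (all genes 1.32%), and 0 had one of at most -1 (all genes 1.47%; past 1 in size 2.79%). With libraries scaled to their 75th percentile the ratios of Fga, Fgb and Fgg were 0.97, 0.77 and 0.88, and no member reached 1. That scaling moved the median of all genes from 0.040 to -0.080. The members' median moved from 0.18 to 0.040 with it. Under the deposited scaling 35 of 44 members had a positive ratio (all genes 57.3%), and under the other 26. The share of all genes under the other scaling is not given, so the 26 has no background.

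The other liver-secreted members with large differences at 40 d were closer to vehicle in these 2 livers. C8a measured 60.2 and 84.3 FPKM (log2 ratio 0.48), C8b 25.0 and 26.1 FPKM, C3 1011 and 1139 FPKM, and Serping1 332 and 349 FPKM. The 24 h vehicle liver itself lay above the highest 40 d vehicle liver in C8a (46.2 FPKM), C8b (16.4 FPKM) and Serping1 (242 FPKM). It did so in Fga, Fgb and Fgg too, and in C3 it lay inside the 40 d vehicle range. The times were normalized separately and were not compared by a test. The median log2 ratio was 0.22 over the liver-secreted and -0.024 over the macrophage-expressed members. C1qa measured 173 and 166 FPKM. The acute phase genes had a median log2 ratio of 0.63, and Saa1, for one, measured 117 and 278 FPKM.

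In muscle at 24 h, 22 members had at least 1 FPKM in at least 1 library, and 7 of them had a log2 ratio of at most -1 (all genes 1.73%): Fga, Fgb, Fgg, Plg, Kng1, F2 and F12. None had one of at least 1 (all genes 3.04%; past 1 in size 4.77%). In reads, the vehicle and treated muscles held Fga 227 and 0, Fgb 220 and 0, Fgg 163 and 1, Kng1 107 and 0, F2 90 and 6, Plg 74 and 0 and F12 33 and 0. A count of 0 allows up to 3 reads, and where a gene is at 0 the ratio depends on the added 1 FPKM. All 7 genes are secreted by hepatocytes, and hepatocyte genes outside the members went the same way: Alb measured 66.7 FPKM in the vehicle and 5.32 FPKM in the treated muscle, and Apoa1 21.4 and 0.0539 FPKM. The vehicle muscle thus held more transcripts of hepatocyte genes outside the members than the treated one, and their part in these ratios was not tested. Other markers differed between these 2 muscles too: the adipocyte list had a median log2 ratio of 1.09 (treated higher) and the skeletal muscle list one of -0.76. The macrophage-expressed members had a median log2 ratio of -0.092, with C1qa at 149 and 139 FPKM and C5ar1 at 11.3 and 12.3 FPKM.

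**Figure D5:**
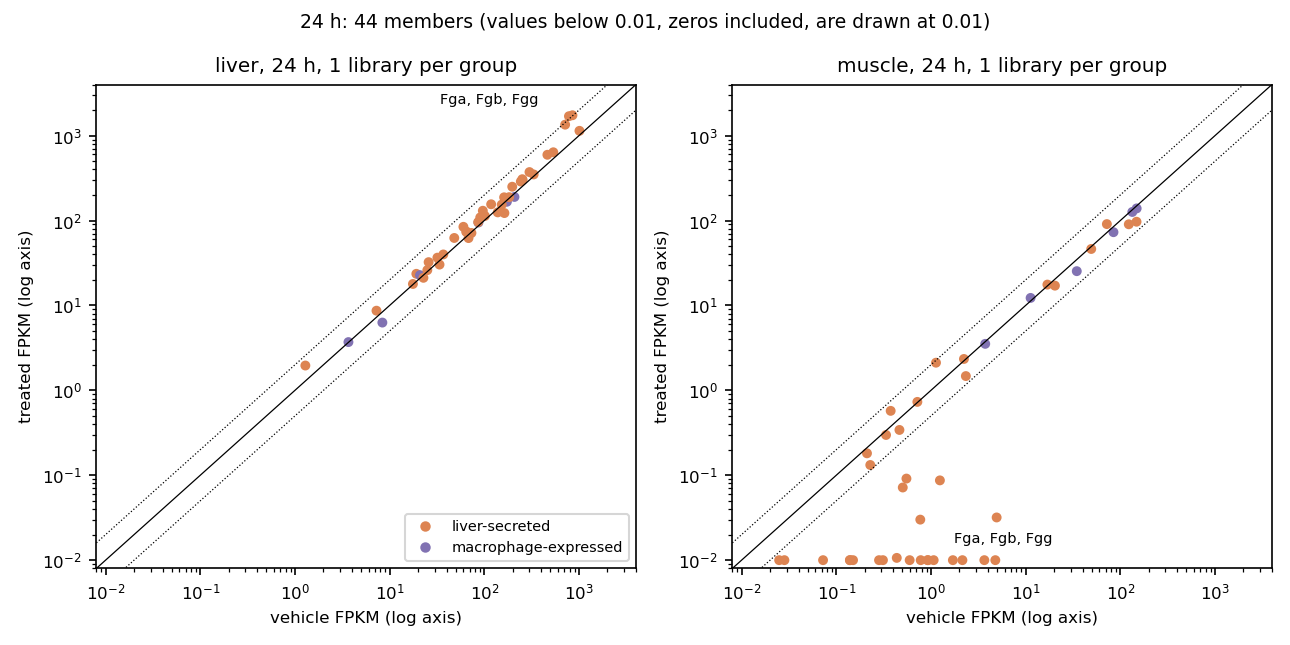
FPKM of the 44 members in the treated against the vehicle library at 24 h on log axes, in liver (left) and muscle (right), 1 library per group, with a solid line at equality and dotted lines at a 2-fold difference; values under 0.01 are drawn at 0.01. In liver the fibrinogen genes lie at the upper dotted line, and in muscle many liver-secreted genes lie on the lower edge while macrophage-expressed genes lie near equality.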

How the data were processed

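RNA from livers and muscles was sequenced, and the authors deposited 3 tables of FPKM (reads scaled by gene length and library size) with gene lengths, per the file headers: liver and muscle at 40 d and both tissues at 24 h, each normalized on its own. Libraries were made with a NEBNext Ultra kit from Trizol-extracted RNA, per the labels' protocols. GRCm38 (mm10) is named in the submitters' processing notes; aligner, counter and strand setting were not given in the sources used here. FPKM times gene length gave whole reads within 0.01 for every value up to 1000 reads in all 28 libraries, which gave the depths.

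FPKM are not counts, so log2(FPKM + 1) was tested with limma 3.58.1 (trend, R 4.3.3) in each tissue at 40 d, 6 against 6, two-sided, over genes that reached 1 FPKM in 6 or more of 12 libraries, with Benjamini-Hochberg adjustment over all of them and a threshold of 0.05. Fold changes are on that scale and understate those of low genes. The tissue difference is a contrast in 1 limma fit. At 24 h only ratios were taken. The test was checked on simulated data in which both groups had the vehicle spread, so a larger spread in treated samples was not covered. Samples of a group are separate mice by number; nothing else says how they were housed or handled, so p-values measure the spread between these samples. Members with full values were those called, those whose groups did not overlap, and the one with the smallest p in each role; fibrinogen, C8 and others were added after their values were seen. One gene of the wider pathway list is not reported here by name. Members and lists were chosen with earlier results of these data known. Alternatives were another pseudocount, other filters, 75th percentile scaling, limma voom on recovered reads, array weights, leaving out libraries, and the mouse number as a block.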

Additional observations from a re-analysis of the deposited data

Results flagged for a closer look

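Within groups of 6 libraries, a highest or lowest library was noted where its gap to the nearest other, divided by the range of the group, passed Dixon's critical value; chance alone marks about 1 in 20 groups. The treated liver 4_5 stood apart in C1qa (426 FPKM against 128 to 226 FPKM in the other treated livers, ratio 0.672), C1qb (ratio 0.657), C1qc (ratio 0.773), Cfp (167 FPKM, ratio 0.889) and C3ar1 (9.90 FPKM, ratio 0.661), 5 of the 6 macrophage-expressed members. These 5 come from 1 library and are not separate observations. No share over all genes was taken for this rule, so the count has no background.

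Liver-secreted members had single livers apart in both groups. C8g was lowest in the treated liver 5_5, at 115 FPKM against 179 to 217 FPKM (ratio 0.633). Plg was highest in the treated liver 5_3, at 754 FPKM against 375 to 512 FPKM (ratio 0.64). C3 was highest in the vehicle liver 2_4, at 1169 FPKM against 792 to 897 FPKM (ratio 0.721). The vehicle liver 2_1 was highest in F9, at 91.3 FPKM against 58.6 to 67.3 FPKM (ratio 0.735). It was lowest in F12, at 181 FPKM against 223 to 248 FPKM (ratio 0.628). Fgg was lowest in the vehicle liver 2_5, at 613 FPKM against 718 to 769 FPKM (ratio 0.67).

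In muscle, the treated mouse 4_5 was highest in Cfp (23.3 FPKM, ratio 0.671) and C5ar1 (6.74 FPKM, ratio 0.736), and the vehicle mouse 2_1 in C3ar1 (3.41 FPKM, ratio 0.697). The summed liver-secreted members not tested in muscle were highest in the vehicle muscle 3_2 (28.6 FPKM, ratio 0.835).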

How the results depend on the processing

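In liver at 40 d the count of members called was 0 under the pseudocount, filter, scaling, voom and array weight alternatives, 0 to 5 with each library left out in turn (5 without the treated 5_2) and 10 without 4_5 and 5_2. Members whose groups did not overlap numbered 3 to 13 over the libraries left out (all genes 1.36 to 2.80%), and 16 without both (all genes 4.73%); fewer samples overlap less by construction. All genes called were 0 to 83 over the libraries left out. In muscle, with no filter, 1 member had an unadjusted p under 0.05 and the median was -0.038; with array weights 1 member did and Pros1 was -0.029. Over the muscles left out that count was 0 to 1, and the sign turned for C3ar1 (-0.17 to 0.089), Pros1 (-0.0091 to 0.10), Cfp (-0.016 to 0.30) and Serping1 (-0.011 to 0.25), none of them called. C3ar1 was 0.031 without 5_2. The tissue difference at an unadjusted p under 0.05 gave 0 to 2 members. At 24 h in liver, 75th percentile scaling left 0 members at 1, 26 positive (with no share of all genes given) and a median of 0.040. The causes were not tested. Equal mouse numbers in liver and muscle deviated together weakly (correlations -0.078 to 0.45, 7 of 12 over 0.1, 7 highest for their own number); with the number as a replicate block, 0 members were called. Low read numbers limit Cfb and C5ar1 in liver, at 72 and 70 reads in their lowest library.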

Other observations

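Markers of other cells in the livers at 40 d, from lists of known marker genes, gave these values. Of the neutrophil list 5 genes passed the filter, and all had a positive log2 fold change (median 1.98, all genes 49% positive). By limma 1 of them passed the test (adjusted p = 0.0449, all genes 0.255%). Of the red cell list all 5 had a positive log2 fold change (median 0.68), and of the fibroblast and stellate list 4 of 5, with none passing. Of the endothelial list 2 of 5 and of the hepatocyte list 4 of 8 were positive, and the platelet and adipocyte lists each had 1 gene tested, not called. In muscle 3 of the 10 neutrophil genes listed were tested, all positive (median 0.81, all genes 48.6% positive). Retnlg, 1 of the 3, averaged 1.12 FPKM in vehicle and 2.93 FPKM in treated muscles. More treated than vehicle muscles carried it past the filter of 1 FPKM, so its direction is tied to that filter. All 5 red cell genes were positive (median 0.90), and all 4 fibroblast genes tested had a negative log2 fold change (median -0.27). None of these passed.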
